A study of Mus musculus with 82 samples.

Results

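The comparison described here sets mouse sciatic nerves labelled Mitf-Ndrg1 against sciatic nerves labelled Mitf, and so gives the difference that goes with the Ndrg1 label when the Mitf label is present in both groups. It covers 11 of the 82 RNA-seq libraries of the series, 5 labelled Mitf-Ndrg1 and 6 labelled Mitf, chosen by the sample names of the table that holds them. The same table holds 5 libraries labelled Ndrg1 and 6 labelled control, which enter below where the effect of the Ndrg1 label without the Mitf label is needed. A separate table of 8 libraries, 4 taken 3 days post injury and 4 uninjured, all labelled Mitf, is used at the end. The labels give a genotype word for each group and the tissue, quick-frozen sciatic nerve. For this table they state no allele, no Cre driver, no age and no injury, so whether Mitf and Ndrg1 were deleted in all cells or in Schwann cells alone cannot be read from them, nor which of the lone words marks a deletion and which a floxed control. They also do not say whether the libraries of a group came from separate animals. The p-values therefore set each group difference only against the scatter of the samples at hand, part of which may be technical. The libraries of a group were not repeats of 1 sample, since Xist stood at 0.46 CPM in Mitf-Ndrg1 replicate 1 and 586 CPM in replicate 2, and muscle RNA differed widely, as given below.

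Ndrg1 encodes a cytoplasmic protein that is abundant in myelinating Schwann cells, the glia that wrap peripheral axons, and its loss in humans causes a recessive demyelinating form of Charcot-Marie-Tooth disease. Mitf, a transcription factor best known from pigment cells, belongs to the MiT/TFE family, whose relatives Tfeb and Tfe3 drive genes of the lysosome. When a peripheral axon is lost or a Schwann cell loses its myelin, Schwann cells are known to shut down myelin and lipid synthesis genes, to turn on a repair program that depends on the transcription factor Jun, and to divide, while macrophages enter the nerve and take up myelin debris.

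Ndrg1 (chr15:66929318-66969640, minus strand, GENCODE vM21 on mm10) was the most strongly supported of the lower genes and followed the labels. It stood at 167, 189, 186, 159 and 180 CPM in Mitf-Ndrg1 nerves, against a lowest of 1440, a median of 1790 and a highest of 2010 CPM in Mitf nerves. CPM are counts brought to a common library size and corrected here for library composition. The groups did not overlap (log2 change -3.33, SE 0.0892, adjusted p = 5.01e-19), with every adjusted p in this text taken, unless named otherwise, from edgeR's quasi-likelihood test with Benjamini-Hochberg adjustment over all tested genes. Log2 changes run Mitf-Ndrg1 minus Mitf. In the nerves without the Mitf label it stood at 180 ± 11.3 CPM in Ndrg1 nerves (SD, n = 5) and 1970 ± 96.3 CPM in control nerves (SD, n = 6). Mitf (chr6:97807052-98021349, plus strand) was slightly higher (log2 change 0.31, SE 0.123, adjusted p = 0.0368), at 17.8, 14.3, 12.1, 13.9 and 17.3 CPM in Mitf-Ndrg1 nerves, against a lowest of 10.5, a median of 11.7 and a highest of 14.8 CPM in Mitf nerves. These ranges overlapped. The Mitf call was lost when any of Mitf replicates 1 to 4, Mitf-Ndrg1 replicate 1 or Mitf-Ndrg1 replicate 5 was left out, with adjusted p between 0.059 and 0.126, and also without the muscle-rich libraries described below (0.18 on the log2 scale, adjusted p = 0.434). A gene-level count covers every exon, so it does not show whether a part of the gene was removed. Of the other members of the Ndrg family, Ndrg4 was higher by 0.43 (adjusted p = 0.00261), Ndrg3 stood at -0.27 (adjusted p = 0.000964) and Ndrg2 did not pass the test (0.05, adjusted p = 0.83).

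Total estimated counts lay between 18800000 and 30900000 per library in the 11 nerves compared. The tissue label was checked against 12 Schwann cell markers, which summed to 16000, 20100, 30400, 25800 and 33900 CPM in Mitf-Ndrg1 nerves, against a lowest of 73400, a median of 92100 and a highest of 107000 CPM in Mitf nerves. Of the 12 markers 7 were lower, 2 were higher and 3 did not pass, with changes from -2.01 to 1.76 on the log2 scale and a median of -0.46. Schwann cell RNA was abundant in every library. In bulk tissue, fewer cells of a type and less RNA per cell cannot be told apart. Skeletal muscle RNA varied far more within the groups than between them: the sum over 28 muscle genes was 5180, 5970, 73.2, 24700 and 71 CPM in Mitf-Ndrg1 nerves, against a lowest of 102, a median of 1740 and a highest of 47800 CPM in Mitf nerves. On the log2 scale the muscle sum differed by -0.52, with an SD of 3.91 in Mitf-Ndrg1 nerves and 2.86 in Mitf nerves (exact permutation test over 462 arrangements, two-sided p = 0.835). Of 27 muscle genes tested, 1 was higher, Tnnc1, a slow-twitch troponin (0.99, adjusted p = 0.0424, lost without the muscle-rich libraries at adjusted p = 0.26 and without any of 7 single libraries), and none was lower. With the muscle sum as a covariate 4 were higher and none lower. Replicates 1, 2 and 4 of the Mitf-Ndrg1 group and replicates 2 and 3 of the Mitf group exceeded 2030 CPM, which is 3 times the median of the whole table's 22 libraries, and are called muscle-rich. Adipocyte RNA also differed, with 12 genes summing to 984, 721, 216, 1020 and 100 CPM in Mitf-Ndrg1 nerves, against a lowest of 38, a median of 103 and a highest of 290 CPM in Mitf nerves. The 3 Mitf-Ndrg1 nerves highest in fat genes were the 3 that were muscle-rich. Of 10 adipocyte genes tested 9 were higher, among them Adipoq, the fat hormone adiponectin (2.72), and Fabp4, a fatty acid carrier (2.27), and none of 11 passed without the muscle-rich libraries, where the median was 0.50. With the summed level of these fat genes as a covariate, called the adipocyte covariate below, none of the 10 was higher and 1 was lower. With that covariate 7 of the 27 muscle genes were lower and 1 was higher. Xist and Y-linked genes both reached 1 CPM in 6 of the 11 libraries, 3 in each group. Mitf replicates 2, 3 and 4 had Xist at 554, 296 and 200 CPM and Y-linked sums of 41, 105 and 122 CPM. In Mitf-Ndrg1 replicates 3, 4 and 5 Xist stood at 361, 336 and 377 CPM and the Y-linked sums at 18.1, 63.2 and 66.6 CPM. These libraries thus held both female and male RNA, and where it came from was not tested.

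**Figure D1:**
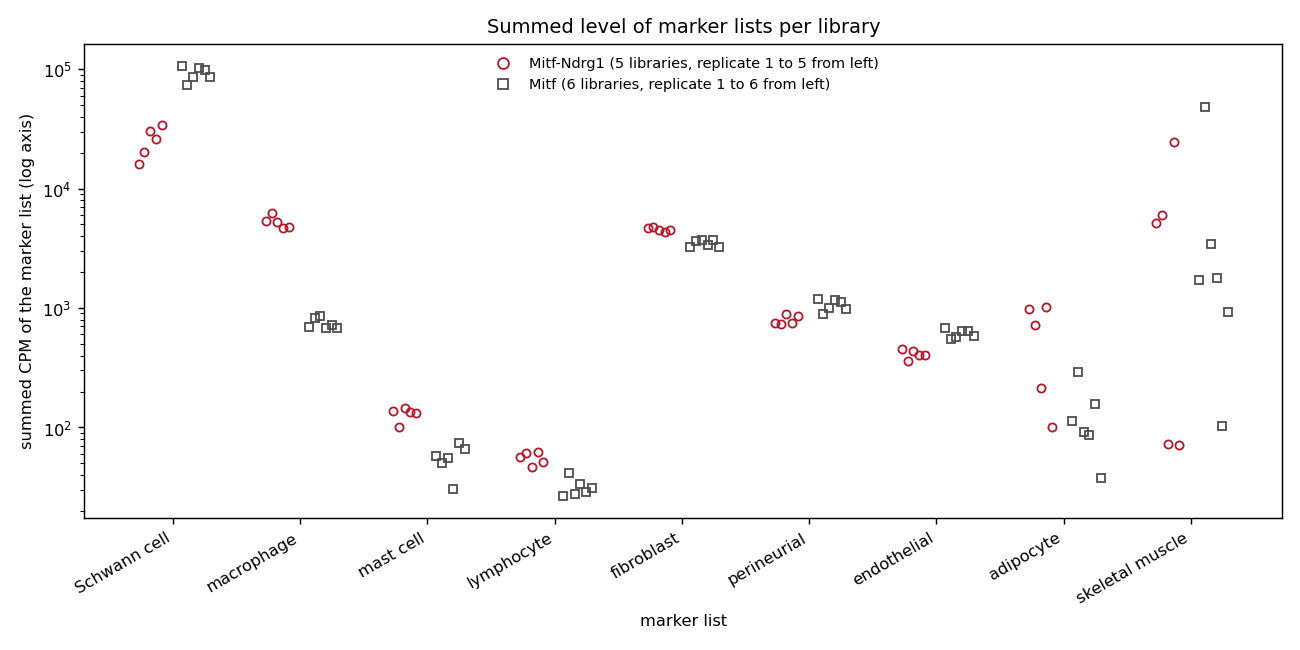
Summed level of 9 lists of cell type markers in each library, in CPM on a log axis. Red circles are the 5 Mitf-Ndrg1 libraries and grey squares the 6 Mitf libraries, each in replicate order from the left. Schwann cell sums are all lower in Mitf-Ndrg1 nerves (16000 to 33900 against 73400 to 107000 CPM), although of the 12 markers 7 were lower, 2 higher and 3 not called, with a median log2 change of -0.46. Macrophage sums are all higher (4700 to 6180 against 679 to 855 CPM), and skeletal muscle sums scatter from 71 to 47800 CPM in no order of the groups.

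With the Ndrg1 label, nerves that carry the Mitf label were lower in myelin and in sterol, fatty acid and sphingolipid synthesis genes, and higher in repair Schwann cell, cell division, macrophage, chemokine and complement genes. Of 15910 genes tested, 9165 passed at an adjusted p under 0.05, which is 57.6%, with 4720 higher (29.7%) and 4445 lower (27.9%). A log2 change of at least 1 was reached by 1821 higher genes (11.4%), and a log2 change of at most -1 by 951 lower genes (5.98%). The median over all tested genes was 0.01, a value that the scaling for library composition itself brings near 0. The scaling factors behind the CPM ran from 0.912 to 0.959 in Mitf nerves and from 1.09 to 1.12 in Mitf-Ndrg1 nerves. That scaling assumes that most genes are unchanged. The split into higher and lower genes, and the calls of small changes, therefore depend on it. In 6442 of the 15910 genes the values of the groups did not overlap, so a lack of overlap in a gene below is common in this comparison. Without the 5 muscle-rich libraries, which left 2 Mitf-Ndrg1 and 4 Mitf nerves, 6672 genes passed, 3345 higher and 3327 lower. Of the genes called over all libraries 6426 were called again with the same sign and 1 with the opposite sign. Muscle RNA was not balanced in that fit. The Mitf-Ndrg1 nerves left had muscle sums of 73.2 and 71 CPM. Those of the Mitf nerves left were 1700, 1790, 102 and 932 CPM. The 28 muscle genes tested there had a median of -4.67, against -0.31 over all libraries. A call kept or lost in that fit is therefore not free of muscle RNA. Because most genes passed over all libraries, the count of a list below is read against the shares over all tested genes (29.7% higher and 27.9% lower).

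**Figure D2:**
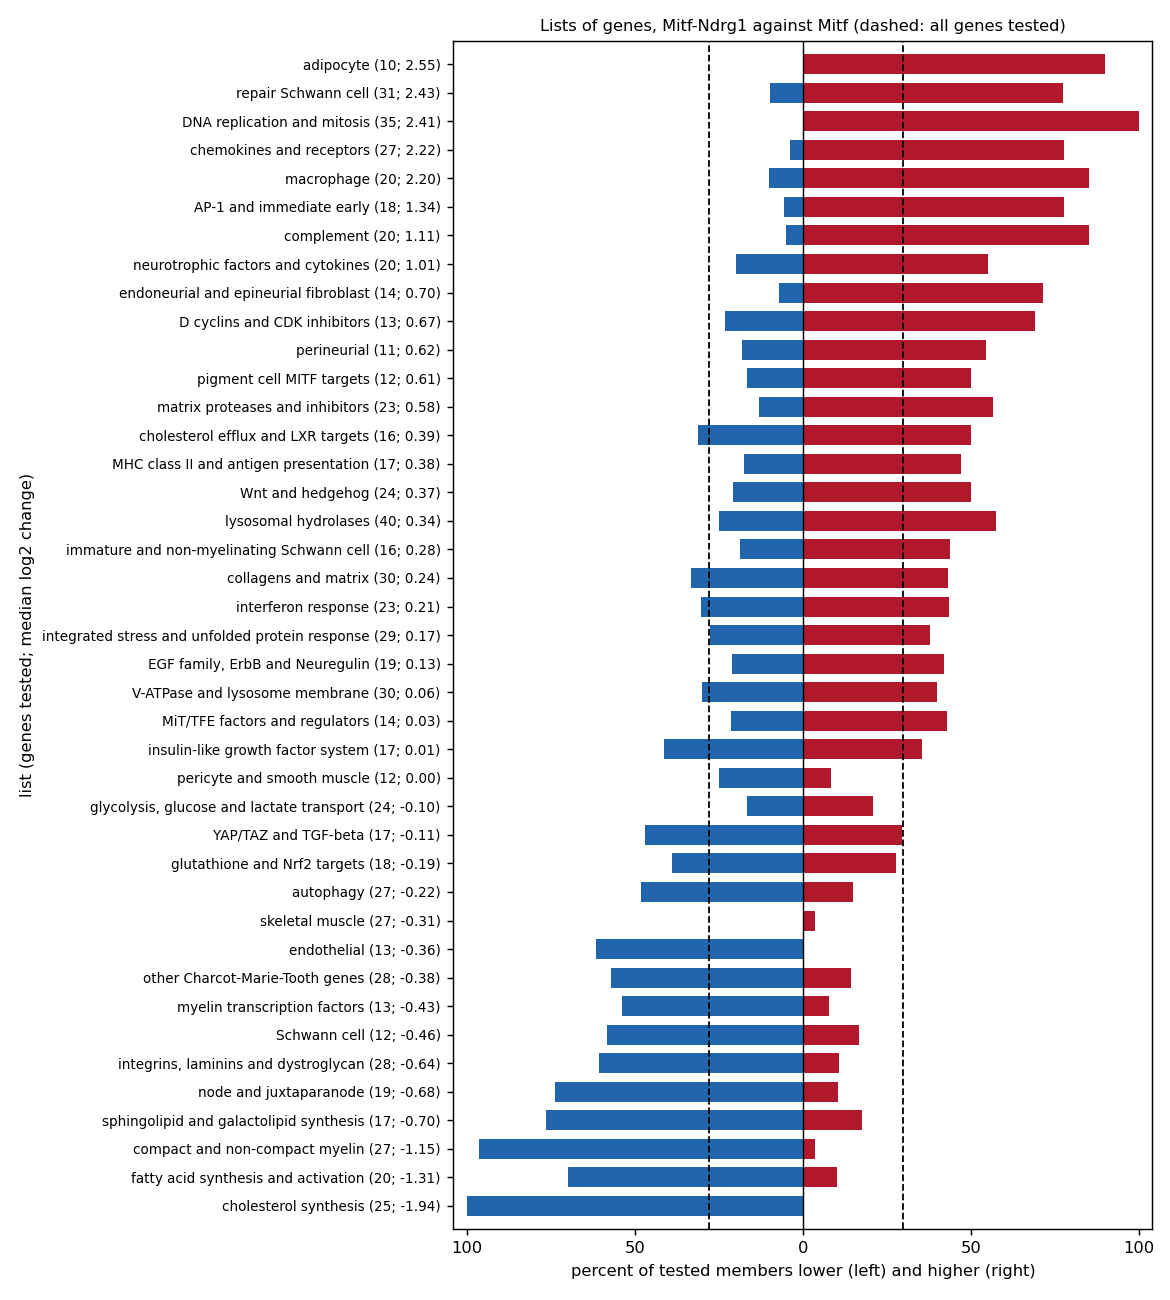
Lists of genes with at least 10 tested members, ordered by median log2 change (Mitf-Ndrg1 minus Mitf). Each row names the list with its number of tested genes and its median, blue bars to the left give the percent of tested members that were lower and red bars to the right the percent that were higher, and dashed lines mark the shares over all tested genes (27.9% and 29.7%). All 25 tested cholesterol synthesis genes were lower and all 35 tested DNA replication and mitosis genes were higher.

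Cholesterol synthesis was the list with the lowest median. Schwann cells make most of the cholesterol of their myelin themselves, through the mevalonate pathway. All 25 tested genes were lower, with a median of -1.94, against 27.9% lower over all genes. Hmgcs1, an early synthase of the pathway, stood at 722, 737, 829, 745 and 1030 CPM in Mitf-Ndrg1 nerves, against 2960 to 3790 CPM (median 3640) in Mitf nerves (log2 change -2.11, SE 0.121, adjusted p = 4.08e-13). The groups did not overlap, and the highest Mitf-Ndrg1 nerve was replicate 5. Insig1, a sterol-regulated anchor that holds back the pathway's activator, stood at 68.7, 76, 85.4, 96 and 93.8 CPM in Mitf-Ndrg1 nerves, against 295 to 423 CPM (median 388) in Mitf nerves (log2 change -2.18, SE 0.111, adjusted p = 5.02e-14). Fdft1, which makes squalene, stood at 82.3, 81.4, 114, 96.5 and 108 CPM in Mitf-Ndrg1 nerves, against 334 to 436 CPM (median 386) in Mitf nerves (log2 change -1.99, SE 0.0943, adjusted p = 1.19e-14). All 5 Mitf-Ndrg1 values of Insig1 and Fdft1 lay under the lowest Mitf nerve. Other enzymes among the lower genes with the smallest p were Acat2 (-1.90), Msmo1 (-1.69), Pmvk (-1.37), Sc5d (-2.04) and Mvd (-1.91). The member nearest 0 was Lbr, a sterol reductase that also binds nuclear lamins, at -0.25 (adjusted p = 0.00474), with overlapping groups. Lbr alone of the 25 did not pass without the muscle-rich libraries (adjusted p = 0.333), and its call was also lost with the adipocyte covariate (adjusted p = 0.0997). Srebf2, the transcription factor that activates this pathway when sterols are low, stood at 70.7, 80.4, 119, 97.7 and 129 CPM in Mitf-Ndrg1 nerves, against 270 to 395 CPM (median 357) in Mitf nerves (log2 change -1.79, SE 0.146, adjusted p = 2.5e-10). Its 2 lowest nerves were Mitf-Ndrg1 replicates 1 and 2, and no value overlapped.

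The promoters of 2 of these genes are printed because the activators of the pathway bind a sterol element and, beside it, the factor NF-Y binds the CCAAT box. Both sequences come from RefSeq on GRCm38.p6 and end before the gene's start. Capitals mark TCACCCCAC, taken here as the sterol element, and CCAAT, which reads ATTGG on the other strand. The stretch for Hmgcs1 is chr13:119690101-119690350, plus strand, and that for Insig1 is chr5:28071162-28071245, plus strand.
Hmgcs1: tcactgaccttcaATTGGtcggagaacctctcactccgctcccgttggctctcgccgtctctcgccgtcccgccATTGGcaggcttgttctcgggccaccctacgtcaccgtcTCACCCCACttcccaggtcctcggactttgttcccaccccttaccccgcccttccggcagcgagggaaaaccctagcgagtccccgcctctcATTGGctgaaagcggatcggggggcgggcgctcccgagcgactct
Insig1: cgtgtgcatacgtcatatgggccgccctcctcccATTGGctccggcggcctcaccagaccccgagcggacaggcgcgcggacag
In the 250 bases before the start, 16 of the 17 cholesterol synthesis genes with a RefSeq promoter held a CCAAT box on either strand (94.1%). The shares were 37.5% of all 27025 genes with a promoter and 39.9% of the tested ones. Here and below each gene counted once, as a match if any of its promoters held the letters. All 16 were lower in Mitf-Ndrg1 nerves, as were all 25 tested genes of the list, with or without the box. Of these 17 genes, Hmgcs1 alone held the exact letters TCACCCCAC there, which 0.555% of the 27025 genes held. Other forms of the sterol element were not searched. A match is a description of these letters and not a measured binding site.

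Myelin genes were lower nearly throughout. Of 27 tested genes of compact and non-compact myelin 26 were lower and 1 was higher, with a median of -1.15. Pmp22, a tetraspan protein whose gene dosage causes Charcot-Marie-Tooth disease, stood at 12600, 13800, 18200, 14500 and 17200 CPM in Mitf-Ndrg1 nerves, against 33700 to 44300 CPM (median 41300) in Mitf nerves (log2 change -1.38, SE 0.096, adjusted p = 1.52e-11). Ugt8a, which makes the galactolipids of myelin, stood at 629, 659, 804, 708 and 956 CPM in Mitf-Ndrg1 nerves, against 2270 to 3100 CPM (median 2870) in Mitf nerves (log2 change -1.90, SE 0.122, adjusted p = 3.83e-12). Each of the 5 Mitf-Ndrg1 nerves was below every Mitf nerve for both genes. Mbp, myelin basic protein, stood at -1.36, Prx, the scaffold periaxin, at -1.55, and Fa2h, which hydroxylates sphingolipid fatty acids, at -1.86 on the log2 scale. The exception was Mpzl2, an adhesion protein that is also among the perineurial markers, which was higher by 0.94. Without the muscle-rich libraries 26 of the list's genes were lower and 1 was higher, with a median of -1.04.

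Of 13 transcription factors of the myelin program 7 were lower and 1 was higher, with a median of -0.43 (-0.26 with the adipocyte covariate). Egr2, the zinc finger factor required for myelination, stood at 83, 85.8, 126, 94.2 and 122 CPM in Mitf-Ndrg1 nerves, against 186 to 210 CPM (median 197) in Mitf nerves (log2 change -0.95, SE 0.104, adjusted p = 3.91e-08). Sox10, the lineage factor of all Schwann cells, stood at 191, 214, 327, 273 and 357 CPM in Mitf-Ndrg1 nerves, against 407 to 703 CPM (median 556) in Mitf nerves (log2 change -1.04, SE 0.187, adjusted p = 5.26e-05). Neither gene's groups overlapped. Pou3f1 (0.34, adjusted p = 0.0961, but 0.0226 without Mitf-Ndrg1 replicate 1, 0.0392 without replicate 2, 0.0117 without the muscle-rich libraries and 0.0102 with the adipocyte covariate) and Srebf1 (-0.10, adjusted p = 0.532) did not pass. Of 20 genes of fatty acid synthesis and activation 14 were lower and 2 were higher, with a median of -1.31, including Fasn, fatty acid synthase (-1.41), Scd2, a desaturase of neural tissue (-1.69), and Elovl6, an elongase (-2.06). The higher members were Thrsp, a lipogenic gene of fat tissue whose groups overlapped (2.25, and 0.35 without the muscle-rich libraries, adjusted p = 0.744), and Elovl5 (0.92). Of 17 sphingolipid and galactolipid genes 13 were lower and 3 were higher, with a median of -0.70. Without the muscle-rich libraries, and likewise with the adipocyte covariate, 10 of the 17 were lower. Cers2, the ceramide synthase of very long-chain lipids, stood at -1.31, and Sptlc2, of the first enzyme of the pathway, at -1.32.

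Genes that carry cholesterol out of cells were split. Of 16 efflux and liver X receptor target genes 8 were higher and 5 were lower, with a median of 0.39. Abca1, the exporter that loads cholesterol onto lipoproteins, stood at 139, 135, 188, 211 and 193 CPM in Mitf-Ndrg1 nerves, against 20.9 to 26 CPM (median 21.9) in Mitf nerves (log2 change 2.95, SE 0.117, adjusted p = 6.25e-16). Apoe, an apolipoprotein made by macrophages and glia, stood at 5270, 7280, 6610, 6030 and 5240 CPM in Mitf-Ndrg1 nerves, against 875 to 1050 CPM (median 937) in Mitf nerves (log2 change 2.69, SE 0.135, adjusted p = 3.7e-14). Both were higher in each Mitf-Ndrg1 nerve than in any Mitf nerve. Apoc1 was higher by 4.91 and Soat1, which stores cholesterol as esters, by 1.30. Abca2, a lipid transporter of myelinating glia, stood at -1.92, and Scarb1, a lipoprotein receptor, at -0.81.

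**Figure D3:**
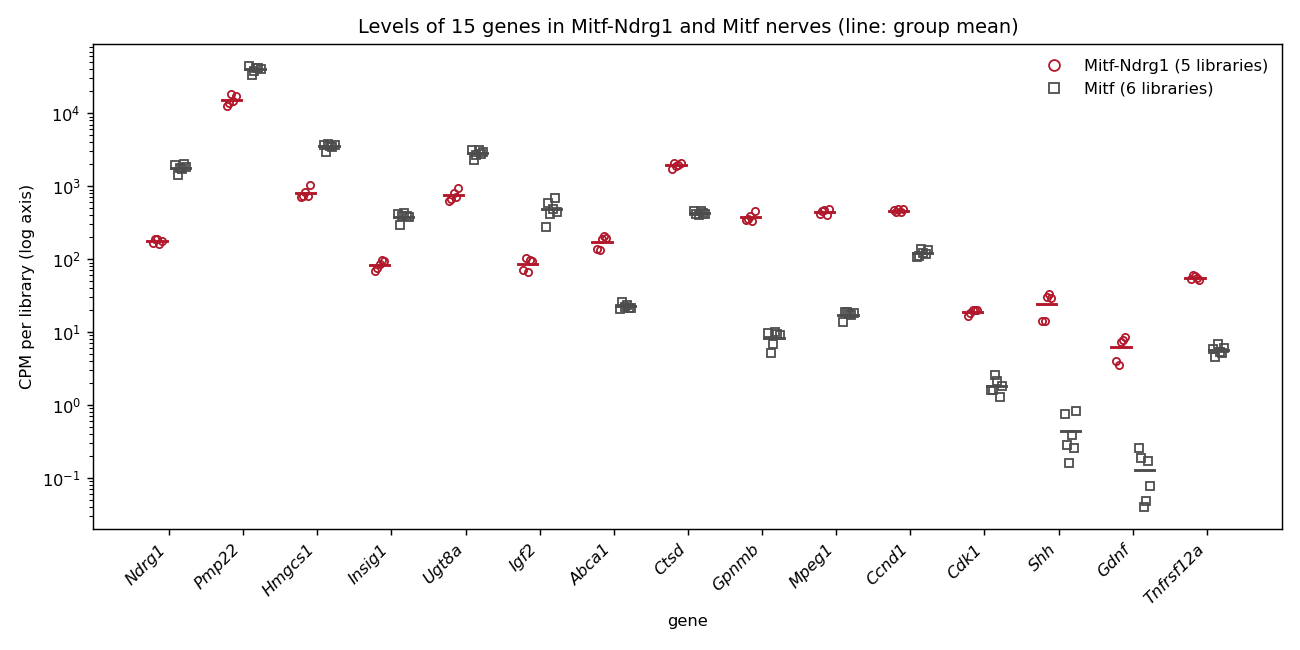
Level of 15 genes in every library, in CPM on a log axis, with red circles for the 5 Mitf-Ndrg1 libraries, grey squares for the 6 Mitf libraries and a line at each group's mean. Ndrg1, Pmp22, Hmgcs1, Insig1, Ugt8a and Igf2 were lower and the other genes higher in Mitf-Ndrg1 nerves, and in no gene shown did the groups overlap. Over all tested genes the groups did not overlap in 6442 of 15910.

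Repair Schwann cell genes were mostly higher. Of 31 tested genes 24 were higher and 3 were lower, against 29.7% higher over all genes, and the median was 2.43. Shh, a secreted hedgehog ligand that Schwann cells make after injury, stood at 14.2, 14.2, 30.5, 33.5 and 29.8 CPM in Mitf-Ndrg1 nerves, against a lowest of 0.161, a median of 0.337 and a highest of 0.819 CPM in Mitf nerves (log2 change 5.75, SE 0.354, adjusted p = 9.59e-12). Gdnf, a survival factor for motor and sensory neurons, stood at 3.97, 3.53, 7.33, 7.81 and 8.52 CPM in Mitf-Ndrg1 nerves, against 0.0402 to 0.255 CPM (median 0.125) in Mitf nerves (log2 change 5.54, SE 0.392, adjusted p = 2.11e-11). Replicates 1 and 2 were the lowest Mitf-Ndrg1 nerves for both genes, still far above every Mitf nerve. Btc, a ligand of the epidermal growth factor receptor family, stood at 20.7, 28.7, 31.7, 28.4 and 23.4 CPM in Mitf-Ndrg1 nerves, against 0.351 to 1.01 CPM (median 0.628) in Mitf nerves (log2 change 5.36, SE 0.246, adjusted p = 1.08e-14). Tnfrsf12a, the receptor of the cytokine Tweak, stood at 53, 60, 59.5, 56 and 51.1 CPM in Mitf-Ndrg1 nerves, against 4.54 to 6.87 CPM (median 5.59) in Mitf nerves (log2 change 3.31, SE 0.108, adjusted p = 1.42e-17). In these 4 genes no Mitf-Ndrg1 value came near the Mitf range. Olig1, a transcription factor found in repair but not in myelinating Schwann cells, had between 22 and 42 estimated counts in Mitf-Ndrg1 nerves and 0 in all 6 Mitf nerves. Its mean of 1.19 CPM was at least 8.19-fold higher than a floor of 3 counts per library (0.145 CPM). Jun, the factor that starts the repair program, stood at 110, 119, 136, 134 and 122 CPM in Mitf-Ndrg1 nerves, against 42.9 to 51.9 CPM (median 45.7) in Mitf nerves (log2 change 1.43, SE 0.0898, adjusted p = 2.26e-12). Its groups did not overlap, and its change was smaller than that of most list members that rose. Sox2 was higher by 1.77, the adhesion molecule Cd44 by 2.43, and Ngfr, the low-affinity neurotrophin receptor, by 1.18 with overlapping groups. The members that were lower were Cdh2, N-cadherin (-0.62), Map1b, a microtubule protein (-0.47, but -0.21 with the adipocyte covariate, adjusted p = 0.0805), and Igf2bp2 (-0.40, adjusted p = 0.083 without the muscle-rich libraries). Gfra1 (-0.15, adjusted p = 0.245, but 0.0372 without Mitf-Ndrg1 replicate 5) and Lif (-0.05, adjusted p = 0.798) did not pass.

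Of 16 genes of immature and non-myelinating Schwann cells 7 were higher and 3 were lower, with a median of 0.28 (0.47 without the muscle-rich libraries and 0.57 with the adipocyte covariate). Gfap, an intermediate filament protein, was higher by 3.04, Apod, a lipocalin, by 1.90, and Ednrb, an endothelin receptor, by 1.62. Rspo1, a secreted Wnt agonist, stood at -1.47. Values for the adhesion genes L1cam (0.22, adjusted p = 0.284, but 0.0405 without the muscle-rich libraries and 0.0263 with the adipocyte covariate) and Ncam1 (-0.17, adjusted p = 0.317) did not pass. Of 18 AP-1 and immediate early genes 14 were higher and 1 was lower, with a median of 1.34, led by Fosl1 (5.44) and followed by Fos (2.37) and Junb (1.65). Nr4a1, an orphan nuclear receptor, was the lower member (-0.33, adjusted p = 0.0952 without the muscle-rich libraries).

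Among secreted growth factors, 11 of 20 neurotrophic factor and cytokine genes were higher and 4 were lower (2 of 22 lower without the muscle-rich libraries). Clcf1 was higher by 3.98, Artn, the ligand artemin, by 2.57, and Osm, the cytokine oncostatin M, by 2.85. Cntf, a cytokine of myelinating Schwann cells, stood at -0.53. Of 19 genes of the EGF family and Neuregulin signalling 8 were higher and 4 were lower. Nrg1, which Schwann cells make after losing axon contact, was higher by 1.80. Ereg, a further ligand, had between 13 and 20 estimated counts in Mitf-Ndrg1 nerves and 0 in every Mitf nerve, at least 4.62-fold above the same floor. Of the receptors, Erbb3 stood at -0.43 (adjusted p = 0.131 without the muscle-rich libraries), Erbb4 at -2.43 and Erbb2 at -0.14 (adjusted p = 0.304), the last not past the test. Igf2, a growth factor, stood at 70.7, 103, 66.1, 95.9 and 94.2 CPM in Mitf-Ndrg1 nerves, against a lowest of 275, a median of 464 and a highest of 682 CPM in Mitf nerves (log2 change -2.48, SE 0.272, adjusted p = 1.41e-07). The highest Mitf-Ndrg1 nerve was below the lowest Mitf nerve. In the rest of the insulin-like growth factor system 6 genes were higher, among them Igf1 (1.71) and the binding protein Igfbp2 (2.83), and 6 besides Igf2 were lower, among them the receptor Igf1r (-1.14). Of 24 Wnt and hedgehog genes 12 were higher and 5 were lower, while 7 were higher with the adipocyte covariate. Wif1, a secreted Wnt inhibitor of endoneurial fibroblasts, stood at 21.1, 25.7, 17.5, 27.3 and 23.3 CPM in Mitf-Ndrg1 nerves, against 0 to 0.351 CPM (median 0.203) in Mitf nerves (log2 change 6.77, SE 0.284, adjusted p = 2.62e-15). Gli1, a readout of hedgehog signalling, was higher by 0.74, Dhh, the hedgehog ligand of developing and myelinating Schwann cells, stood at -0.66, and Smo, the hedgehog signal transducer, at -0.94. Fzd8, a Wnt receptor, was listed at 0 in all Mitf nerves and in Mitf-Ndrg1 replicate 5, so its groups overlapped and its call was lost without the muscle-rich libraries (adjusted p = 0.341).

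All 35 tested genes of DNA replication and mitosis were higher, with a median of 2.41, against 29.7% higher over all genes. Cdk1, the kinase that drives entry into mitosis, stood at 16.7, 18.2, 19.9, 20.4 and 20.2 CPM in Mitf-Ndrg1 nerves, against a lowest of 1.28, a median of 1.73 and a highest of 2.57 CPM in Mitf nerves (log2 change 3.38, SE 0.157, adjusted p = 9.89e-15). Mki67, a marker of cycling cells, was higher by 2.48, Ccnb1, the cyclin partner of Cdk1, by 3.51, and Top2a, a topoisomerase of dividing cells, by 2.71. In every gene of the list but Mcm4 the groups did not overlap, against 6442 of 15910 genes over all tested. Mcm4 is a subunit of the replicative helicase (0.23, adjusted p = 0.0395), and its call was lost without any of Mitf replicates 2 to 6 or Mitf-Ndrg1 replicates 3 to 5 (adjusted p between 0.0512 and 0.143). All 35 passed as higher without the muscle-rich libraries, with a median of 2.81. Of 13 D cyclin and CDK inhibitor genes 9 were higher and 3 were lower. Ccnd1, cyclin D1, which proliferating Schwann cells need, stood at 468, 441, 487, 442 and 483 CPM in Mitf-Ndrg1 nerves, against 107 to 138 CPM (median 120) in Mitf nerves (log2 change 1.94, SE 0.0919, adjusted p = 1.19e-14). All 5 Mitf-Ndrg1 nerves were more than 3 times the highest Mitf nerve. The inhibitor Cdkn2a was higher by 1.92, while Cdkn1a stood at -1.09 and Cdkn1b at -0.63.

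Promoters of Cdk1 and Ccnb1 are printed because genes of cell division are known to carry pairs of CCAAT boxes near their start. Capitals mark that box on either strand. The stretches are chr10:69352913-69353162, minus strand, for Cdk1, and chr13:100786504-100786630, minus strand, for Ccnb1, both from RefSeq on GRCm38.p6.
Cdk1: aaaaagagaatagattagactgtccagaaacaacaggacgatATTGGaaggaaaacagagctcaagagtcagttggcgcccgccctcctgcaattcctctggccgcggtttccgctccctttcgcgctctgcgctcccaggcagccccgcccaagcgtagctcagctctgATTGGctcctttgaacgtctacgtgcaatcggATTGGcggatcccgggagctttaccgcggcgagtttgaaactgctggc
Ccnb1: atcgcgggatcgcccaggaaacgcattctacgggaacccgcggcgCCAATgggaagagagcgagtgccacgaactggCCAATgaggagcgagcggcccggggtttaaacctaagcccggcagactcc
Of the 30 members with a promoter, 23 held the box (76.7%), and all 23 were higher, as were all 35 tested genes of the list. The same letters stood before 94.1% of the cholesterol synthesis genes with a promoter, which were lower. Of 18 myelin genes with a promoter 10 held the box (55.6%), all 10 of them lower, as were 26 of the 27 tested. Since members with and without the box moved alike, these directions are those of the lists and tell nothing about the box.

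Macrophage genes were among the most strongly supported higher genes. Of 20 tested markers 17 were higher and 2 were lower, with a median of 2.20. Their sum was 5360, 6180, 5220, 4700 and 4730 CPM in Mitf-Ndrg1 nerves, against a lowest of 679, a median of 707 and a highest of 855 CPM in Mitf nerves. Mpeg1, a pore-forming protein of macrophages, stood at 410, 458, 467, 398 and 483 CPM in Mitf-Ndrg1 nerves, against a lowest of 13.7, a median of 17.9 and a highest of 18.9 CPM in Mitf nerves (log2 change 4.68, SE 0.147, adjusted p = 6.27e-18). Ms4a7, a membrane protein of macrophages, stood at 100, 111, 84.1, 77.5 and 102 CPM in Mitf-Ndrg1 nerves, against 1.66 to 2.53 CPM (median 1.89) in Mitf nerves (log2 change 5.62, SE 0.153, adjusted p = 5.01e-19). Lyz2, lysozyme, stood at 2940, 3360, 2660, 2260 and 2120 CPM in Mitf-Ndrg1 nerves, against 154 to 208 CPM (median 165) in Mitf nerves (log2 change 3.97, SE 0.143, adjusted p = 1.2e-16). None of these overlapped between the groups. Adgre1, the F4/80 antigen, was higher by 2.10 and Trem2, a lipid receptor of phagocytes, by 3.96. Markers of resident vessel-associated macrophages did not follow: Cd163, a haemoglobin scavenger receptor, stood at -1.63, Lyve1 at -0.74 with overlapping groups, and the mannose receptor Mrc1 at -0.17 (adjusted p = 0.194). Mgl2, a lectin of a subset of tissue macrophages and dendritic cells, stood at 4.77, 5.58, 4.75, 2.94 and 3.54 CPM in Mitf-Ndrg1 nerves, against 28.8 to 39.3 CPM (median 35.2) in Mitf nerves (log2 change -2.97, SE 0.141, adjusted p = 1.19e-14). It lay below the Mitf range in every Mitf-Ndrg1 nerve.

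Chemokine and receptor genes followed, with 21 of 27 higher and 1 lower and a median of 2.22. Ccl2, which attracts monocytes, was higher by 2.99, its receptor Ccr2 by 1.87, Cxcl14 by 5.37 and Cxcl5 by 4.39, and Cxcl12 was lower (-0.66). Of 20 complement genes 17 were higher and 1 was lower, with a median of 1.11. With the adipocyte covariate 14 of these genes were higher and the median was 0.63, and without the muscle-rich libraries 14 were higher with a median of 1.06. The C1q subunits C1qa, C1qb and C1qc were higher by 2.09, 2.19 and 2.08, C3 by 1.72 and Itgb2, a subunit of complement receptors, by 2.16. Cd55, which protects cells from complement, stood at -1.14. Cfd, which is also the adipocyte product adipsin, was higher with overlapping groups (2.60) and did not pass without the muscle-rich libraries (1.03, adjusted p = 0.295). C1q genes stand in the macrophage list too, and the part of the macrophage sum in these lists was not tested. Of 23 interferon response genes 10 were higher and 7 were lower, with a median of 0.21, against 29.7% and 27.9% over all genes. The lower count was 4 without the muscle-rich libraries and 2 with the adipocyte covariate. Cxcl10 was higher by 2.93, whereas Rsad2 stood at -1.11 and Irf7 at -0.55 (adjusted p = 0.0574 with the adipocyte covariate). Of 17 antigen presentation genes 8 were higher, all of the class I pathway, among them the proteasome subunit Psmb8 (1.17) and H2-D1 (0.94). The 3 lower members were of class II, namely Cd74 (-0.73), H2-DMa (-1.63) and H2-DMb1 (-1.23).

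Markers of other immune cells summed to far less than those of macrophages. The lists differ in their genes and in how many they hold, so the sums do not compare numbers of cells. Mast cell markers summed to between 101 and 146 CPM in Mitf-Ndrg1 nerves and between 30.3 and 73.8 CPM in Mitf nerves, and 6 of 8 were higher. Only 3 of the mast cell genes were higher without the muscle-rich libraries or with the adipocyte covariate. Lymphocyte markers summed to between 47.1 and 62.9 CPM in Mitf-Ndrg1 nerves and between 26.5 and 41.7 CPM in Mitf nerves, with 5 of 9 tested genes higher. Cd4 stood at 16.7, 19.2, 18.2, 19.8 and 26.9 CPM in Mitf-Ndrg1 nerves, against 0.281 to 1.5 CPM (median 0.477) in Mitf nerves (log2 change 5.09, SE 0.292, adjusted p = 1.05e-12). The T cell receptor gene Cd3g did not pass (0.47, adjusted p = 0.442), and neither did the B cell genes Cd79b (0.44, adjusted p = 0.175) and Ighm (0.19, adjusted p = 0.286, but 0.0351 without Mitf replicate 2). Of 9 neutrophil markers 4 were tested, with 3 higher and Lcn2 lower (-1.04), and their sum stayed between 17.4 and 22.4 CPM in Mitf-Ndrg1 nerves and between 4.74 and 8.27 CPM in Mitf nerves. None of the 5 tested erythrocyte genes passed.

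Lysosomal genes, the best known targets of the MiT/TFE family, moved in both directions. Of 40 hydrolase genes 23 were higher and 10 were lower, with a median of 0.34. Ctss, a cathepsin of antigen-presenting cells, stood at 318, 338, 341, 262 and 262 CPM in Mitf-Ndrg1 nerves, against 14.7 to 18.7 CPM (median 17.6) in Mitf nerves (log2 change 4.17, SE 0.113, adjusted p = 5.01e-19). Ctsd, the main aspartic protease of lysosomes, stood at 1730, 2100, 1910, 1970 and 2110 CPM in Mitf-Ndrg1 nerves, against 403 to 460 CPM (median 421) in Mitf nerves (log2 change 2.21, SE 0.0888, adjusted p = 7.74e-16). Both were above the Mitf range in each Mitf-Ndrg1 nerve. Lgmn, legumain, was higher by 2.26. On the other side, Arsa, which degrades the myelin lipid sulfatide, stood at -0.70, Gaa, acid alpha-glucosidase, at -0.80 and Ids at -0.96. Without the muscle-rich libraries 24 were higher and 6 lower. Of 30 proton pump and lysosome membrane genes 12 were higher and 9 were lower, with a median of 0.06 (5 lower without the muscle-rich libraries). Gpnmb, a membrane glycoprotein of lysosomes in phagocytes and pigment cells, stood at 343, 358, 390, 336 and 453 CPM in Mitf-Ndrg1 nerves, against 5.25 to 9.95 CPM (median 9.29) in Mitf nerves (log2 change 5.49, SE 0.158, adjusted p = 1.37e-18). Atp6v0d2, a pump subunit of osteoclasts and macrophages, was higher by 5.12 and Cd68 by 2.73, while the subunits of wide expression ranged from -0.61 for Atp6v0a1 to 0.69 for Atp6v0b. The macrophage sum given above moved with these genes, and its part was not tested.

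Promoters of 3 lysosomal genes are shown because the MiT/TFE factors bind the CLEAR box TCACGTGA, marked in capitals. They are Ctsd (chr7:142387874-142387971, minus strand), Gla (chrX:134601148-134601255, minus strand) and Mcoln1 (chr8:3500428-3500518, plus strand), from RefSeq on GRCm38.p6.
Ctsd: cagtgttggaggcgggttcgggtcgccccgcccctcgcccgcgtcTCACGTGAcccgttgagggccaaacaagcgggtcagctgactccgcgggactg
Gla: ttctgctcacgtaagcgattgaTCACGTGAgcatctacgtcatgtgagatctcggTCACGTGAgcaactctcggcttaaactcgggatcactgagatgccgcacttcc
Mcoln1: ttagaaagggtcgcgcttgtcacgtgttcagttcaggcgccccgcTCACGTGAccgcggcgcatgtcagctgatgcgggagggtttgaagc
Gla, alpha-galactosidase, was higher by 1.22, and Mcoln1, a calcium channel of the lysosome, stood at -0.31 (adjusted p = 0.0987 without the muscle-rich libraries). The box was found in 3 of 32 hydrolase genes with a promoter (9.38%), namely Ctsa, Ctsd and Gla, all higher. In the membrane list 2 of 21 held it (9.52%), Atp6v1a, which was higher, and Mcoln1, which was lower. It stood before 0.907% of all genes with a promoter and 1.67% of the tested ones.

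Of 14 MiT/TFE factors and regulators 6 were higher and 3 were lower, with a median of 0.03. Tfec, the family member of macrophages, was higher by 3.13. Tfeb (-0.14, adjusted p = 0.429) and Tfe3 (-0.20, adjusted p = 0.0594) did not pass, though Tfe3 was lower without Mitf replicate 2 (-0.25, adjusted p = 0.015) or Mitf-Ndrg1 replicate 3 (-0.25, adjusted p = 0.0293) and with the muscle covariate (-0.21, adjusted p = 0.0345). Fnip2, a partner of folliculin that acts on these factors, was higher by 0.89, and the kinase gene Mtor stood at -0.45. Without the muscle-rich libraries 2 of the 14 were higher and 1 was lower. Of 12 pigment cell target genes of Mitf 6 were higher and 2 were lower, with Gpnmb the largest, Rab27a at 1.11 and Met, a growth factor receptor, at 0.73. Pmel (-1.03) and Mlph (-1.06) were lower, each with overlapping groups, and neither passed with the adipocyte covariate (adjusted p = 0.069 and 0.258). The Mlph call was lost without the muscle-rich libraries too (adjusted p = 0.127), and it was lost without any of Mitf replicates 1, 4 and 6 or Mitf-Ndrg1 replicates 2 and 4 (adjusted p between 0.0664 and 0.107). Autophagy genes leaned lower, with 13 of 27 lower, 4 higher and a median of -0.22 (1 of 28 higher without the muscle-rich libraries). The receptors Nbr1 (-0.68), Optn (-0.53) and Sqstm1 (-0.37) were lower, and Atg5 was higher (0.54).

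Stress lists moved little as a whole. Of 29 genes of the integrated stress and unfolded protein responses 11 were higher and 8 were lower, with a median of 0.17. Gdf15, a stress hormone, was higher by 3.78 and Sdf2l1, a chaperone cofactor of the endoplasmic reticulum, by 1.67, whereas the amino acid transporter gene Slc7a5 stood at -1.42. Atf4, the factor at the centre of the first response, was higher by 0.27. Of 18 glutathione and Nrf2 target genes 5 were higher (3 without the muscle-rich libraries) and 7 were lower, with Nqo1 at -0.75, Hmox1 at -0.65 and Mgst1 at 2.45. Of 24 glycolysis and glucose transport genes 5 were higher and 4 were lower. Aldoc, the aldolase of nervous tissue, followed Ndrg1 among the lower genes ranked by p, at 3.31, 2.55, 3.73, 2.56 and 3.69 CPM in Mitf-Ndrg1 nerves, against 30.7 to 38.9 CPM (median 33.4) in Mitf nerves (log2 change -3.40, SE 0.111, adjusted p = 1.42e-17). No Mitf-Ndrg1 nerve reached the Mitf range. The lactate transporter gene Slc16a1 did not pass (-0.11, adjusted p = 0.373). Without the muscle-rich libraries 7 of the 24 were higher and 7 were lower, and with the adipocyte covariate 4 were higher and 10 lower.

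In the extracellular matrix, 13 of 30 collagen and matrix genes were higher and 10 were lower. Tnc, tenascin C, was higher by 4.17, Postn, periostin, by 2.90 and Thbs2, thrombospondin 2, by 2.51. The basement membrane collagens Col4a1 and Col4a2 stood at -1.47 and -1.32, and the fibrillar collagen gene Col1a1 did not pass (-0.29, adjusted p = 0.252, but 0.0256 without Mitf-Ndrg1 replicate 5). Of 23 matrix proteases and inhibitors 13 were higher and 3 were lower. Timp1, a protease inhibitor induced by injury, stood at 70.6, 82.6, 91.9, 72.8 and 66.6 CPM in Mitf-Ndrg1 nerves, against 0.937 to 2.11 CPM (median 1.48) in Mitf nerves (log2 change 5.70, SE 0.165, adjusted p = 1.48e-18). Mmp12, the macrophage elastase, stood at 30.4, 25.2, 24.8, 22.3 and 15.7 CPM in Mitf-Ndrg1 nerves, against 0 to 0.213 CPM (median 0) in Mitf nerves (log2 change 8.41, SE 0.409, adjusted p = 1.36e-13). The Mitf values at or near 0 leave the size of this change uncertain. Plaur, the urokinase receptor, was higher by 2.82 and the urokinase gene Plau by 2.42. Of 28 integrin, laminin and dystroglycan genes 17 were lower and 3 were higher (5 with the adipocyte covariate), with a median of -0.64. Dag1, dystroglycan, stood at -1.28, Utrn, utrophin, at -1.38, Itga6 at -1.08 and Lama2, the laminin subunit of Schwann cell basal laminae, at -0.95. Of 19 genes of the node and juxtaparanode 14 were lower, including Nfasc (-1.78), Cntn1 (-1.57) and Cadm3 (-1.46), and 2 were higher. The lower node genes numbered 11 without the muscle-rich libraries, and 11 with the adipocyte covariate. Of 28 other genes known from Charcot-Marie-Tooth disease 16 were lower and 4 were higher (11 and 2 without the muscle-rich libraries). Those lower outside the myelin list included Sbf2, a phosphatase-like partner of Mtmr2 (-1.46), Hk1 (-0.79) and Nefl, the neurofilament light chain (-0.90). Of 17 YAP/TAZ and TGF-beta genes 8 were lower and 5 were higher, with Tead4 at -1.57 and Skil at 1.92.

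Of the other cell types of the nerve, 8 of 13 endothelial genes were lower and none was higher, with a median of -0.36 and a sum between 362 and 456 CPM in Mitf-Ndrg1 nerves, against 552 to 677 CPM in Mitf nerves. Kdr, a receptor of vascular growth factor, stood at -1.25, while the junction gene Pecam1 did not pass (-0.03, adjusted p = 0.838). Fibroblast genes were higher in 10 of 14 and lower in 1, with Pi16 at 1.92, Pcolce2 at 2.18 and Pdgfra at -0.61. Their sum lay between 4310 and 4770 CPM in Mitf-Ndrg1 nerves and between 3220 and 3730 CPM in Mitf nerves. The median of the fibroblast genes was 0.70. Without the muscle-rich libraries 7 of them were higher, with a median of 0.55. With the adipocyte covariate 7 were higher too, with a median of 0.46. Perineurial markers were split, 6 of 11 higher and 2 lower, and their summed level was lower in every Mitf-Ndrg1 nerve (730 to 888 CPM) than in any Mitf nerve (895 to 1190 CPM). Cldn1, a tight junction protein of the perineurium, was higher by 1.02 and Cdh1, E-cadherin, stood at -1.66. Pericyte and smooth muscle genes had 1 higher and 3 lower of 12, and none higher and 5 lower without the muscle-rich libraries. Neuron and axon genes summed to between 96.8 and 130 CPM in Mitf-Ndrg1 nerves and between 116 and 150 CPM in Mitf nerves. Of 9 neuron and axon genes 5 were lower, among them Nefm (-0.80), and Tubb3, a tubulin, was higher (1.87). Without the muscle-rich libraries, and likewise with the adipocyte covariate, 2 of these genes were lower.

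A few genes with the smallest p values stood outside the lists. Csrp2, a LIM domain protein of smooth muscle and activated stromal cells, stood at 132, 179, 145, 143 and 135 CPM in Mitf-Ndrg1 nerves, against 18.4 to 20.3 CPM (median 19.5) in Mitf nerves (log2 change 2.92, SE 0.0977, adjusted p = 2.13e-17). Arl4c, a small GTPase, stood at 42, 43.1, 44.2, 43.1 and 45.5 CPM in Mitf-Ndrg1 nerves, against 2.31 to 3.96 CPM (median 3.41) in Mitf nerves (log2 change 3.72, SE 0.136, adjusted p = 1.47e-16). Cd84, an adhesion receptor of immune cells, stood at 69.1, 78.3, 60.3, 57.4 and 64.7 CPM in Mitf-Ndrg1 nerves, against 3.38 to 5.27 CPM (median 4.84) in Mitf nerves (log2 change 3.88, SE 0.121, adjusted p = 6.27e-18). The groups were far apart in all 3. Among the lower genes, Pcyt2, which makes a precursor of phosphatidylethanolamine, stood at 97.2, 97.9, 119, 97.8 and 108 CPM in Mitf-Ndrg1 nerves, against 291 to 342 CPM (median 329) in Mitf nerves (log2 change -1.63, SE 0.0961, adjusted p = 6.74e-13). Dnaja4, a co-chaperone, stood at 35.9, 38.9, 36.4, 41.2 and 37.3 CPM in Mitf-Ndrg1 nerves, against 76.2 to 91.2 CPM (median 81) in Mitf nerves (log2 change -1.11, SE 0.0651, adjusted p = 6.43e-13). Neither overlapped between the groups.

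The Ndrg1 label was also set against control nerves without the Mitf label, in the same fit, to see whether its effect differed between the backgrounds. Those 11 libraries share none with the Mitf-Ndrg1 and Mitf groups. There 9626 of 15910 genes passed (60.5%), 4896 higher (30.8%) and 4730 lower (29.7%). Of the genes higher in Mitf-Ndrg1 nerves 3894 were higher in Ndrg1 nerves too, which is 82.5% of the 4720 and 79.5% of the 4896. For lower genes the overlap was 3781, which is 85.1% of the 4445 and 79.9% of the 4730. Opposite calls numbered 19 genes that were higher with and lower without the Mitf label, and 9 the other way. The myelin list had a median of -1.15 against Mitf and -1.19 against control, cholesterol synthesis -1.94 and -1.88, repair Schwann cell genes 2.43 and 2.20, mitosis genes 2.41 and 2.33, and macrophage genes 2.20 and 2.30. In the adipocyte list 9 of 10 genes were higher against Mitf, with a median of 2.55, and none passed against control, with a median of 0.15. The difference itself passed in none of these genes, and against Mitf none was higher without the muscle-rich libraries or with the adipocyte covariate.

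**Figure D4:**
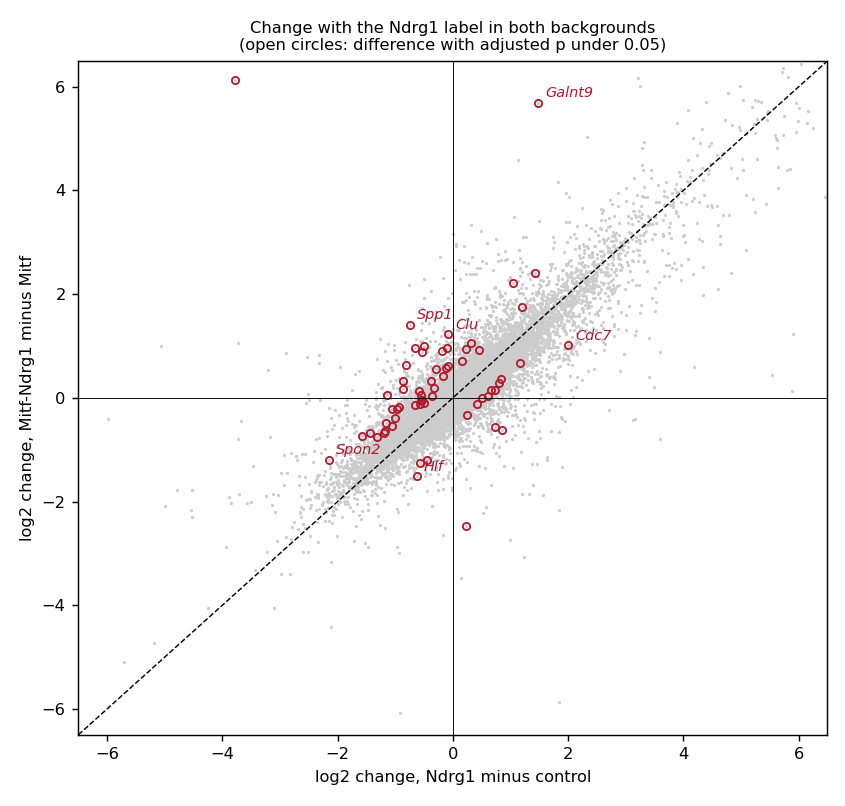
Log2 change of each tested gene with the Ndrg1 label in nerves labelled Mitf (Mitf-Ndrg1 minus Mitf, vertical) against the change without that label (Ndrg1 minus control, horizontal). Grey points are genes, the dashed line is equality, red circles are the 62 genes whose changes differed at an adjusted p under 0.05, and 35 genes lie outside the axes. Clu, Spp1 and Galnt9 lie above the line and Cdc7 lies below it.

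The difference between the effects was tested as an interaction. It passed in 62 of 15910 genes (0.39%), 46 more positive (0.289%) and 16 more negative (0.101%) in the presence of the Mitf label. In the same test 2213 genes had an unadjusted p under 0.05, more than the share of 0.05 that chance alone gives. A gene that did not pass is not thereby shown to change alike in both backgrounds. Under another scaling (RLE) the split was 47 and 30, and with DESeq2 403 genes passed, 223 more positive and 180 more negative. Without the muscle-rich libraries 64 passed, 60 and 4, of which 22 were among the 62. The count itself was not steady: it ran from 20 without Ndrg1 replicate 5 or Mitf-Ndrg1 replicate 3 to 252 without Mitf-Ndrg1 replicate 1. Clu, clusterin, a secreted chaperone that binds complement, was higher in Mitf-Ndrg1 nerves against Mitf (1.23) and not past the test in Ndrg1 nerves against control (-0.09, adjusted p = 0.543), a difference of 1.31 (SE 0.165, adjusted p = 0.000579). It stood at 51.6 ± 5.65 CPM in Mitf-Ndrg1 nerves and 22.2 ± 3.28 CPM in Mitf nerves (SD, n = 5 and 6), and at 25.1 ± 3.36 CPM in Ndrg1 nerves and 26.9 ± 4.22 CPM in control nerves (SD, n = 5 and 6). The Clu difference passed in all 31 alternative fits, with log2 values between 1.24 and 1.39. Spp1, osteopontin, was higher against Mitf (1.41) and stood at -0.75 against control (difference 2.15, adjusted p = 0.0193). Its values were 478, 568, 527, 593 and 571 CPM in Mitf-Ndrg1 nerves, against 61.9 to 330 CPM (median 218) in Mitf nerves, with no overlap.

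Spon2, a secreted matrix protein, was lower in both, at -1.20 against Mitf and -2.15 against control (difference 0.95, adjusted p = 0.00423). Igfbp7, a secreted binding protein, was higher against Mitf (0.62) and stood at -0.09 against control (difference 0.71, adjusted p = 0.0112). Fxyd6, a regulator of the sodium pump, did not pass against Mitf (0.32, adjusted p = 0.0528, but 0.0391 with DESeq2) and was lower against control (-0.86), and so was Irs3, an insulin receptor substrate (0.06 and -1.14). Galnt9, a glycosyltransferase, was higher by 5.70 and by 1.48 (difference 4.21, adjusted p = 0.0112), at 4.11, 3.04, 6.75, 2.43 and 3.69 CPM in Mitf-Ndrg1 nerves, against 0 to 0.191 CPM (median 0.0632) in Mitf nerves. Of the more negative genes, Cdc7, a kinase that starts DNA replication, was higher by 1.01 against Mitf and by 2.00 against control (difference -0.99, adjusted p = 0.0232), and cyclin D2, Ccnd2, by 0.67 and 1.16 (difference -0.49, adjusted p = 0.0337). Sec14l5 stood at -1.20 and -0.45, and Hlf, a clock-controlled factor, at -1.51 and -0.63. Nktr and the splicing factor gene Prpf38b stood at -0.12 and 0.29 against Mitf and at 0.41 and 0.81 against control. Among 31 alternative fits the difference passed in all for Spon2, Igfbp7, Fxyd6 and Galnt9, in 30 for Irs3, Spp1 and Sec14l5, in 25 for Cdc7, in 21 for Ccnd2 and Hlf, and in 19 for Nktr and Prpf38b.

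Finally, genes that change after nerve injury were read in this comparison. The injury table, with 23200000 to 34500000 estimated counts per library and its own fit, compared nerves 3 days post injury with uninjured nerves, all labelled Mitf, and 3365 of 15245 genes passed (22.1%). Of the 837 genes (5.49%) higher by at least 1 on the log2 scale after injury 830 were tested here, and 754 of them were higher in Mitf-Ndrg1 nerves (90.8%) and 4 lower, against 29.7% and 27.9% over all genes. Their median was 1.33, and against control nerves 752 were higher in Ndrg1 nerves, with a median of 1.48. Of the 304 genes (1.99%) lower by at least 1 after injury 300 were tested, and 266 were lower here (88.7%) and 7 higher, with a median of -1.22. Timp1 changed by 5.60 after injury and 5.70 here, Gdnf by 7.30 and 5.54, and Tnfrsf12a by 3.43 and 3.31. Ugt8a changed by -1.47 and -1.90. Gpnmb was unlike these, at 0.72 after injury (adjusted p = 0.0895) and 5.49 here. Ndrg1 itself stood at -0.94 after injury (adjusted p = 0.0275), and Mitf at -0.64 (adjusted p = 0.107). The tables were normalized separately, so only changes within each are set side by side. The injury count itself depended on single libraries, from 1816 genes without uninjured replicate 2 to 4058 without replicate 3 of the injured group.

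**Figure D5:**
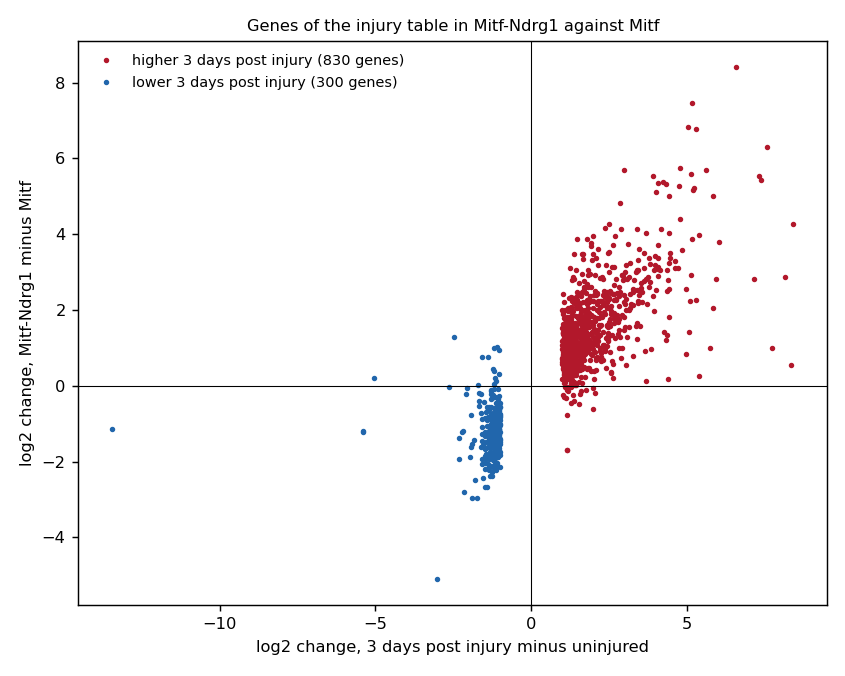
Log2 change of genes of the injury table (3 days post injury minus uninjured, horizontal) and their log2 change in Mitf-Ndrg1 minus Mitf nerves (vertical). Red points are the 830 tested genes higher and blue points the 300 tested genes lower after injury by at least 1 on the log2 scale. Of the red points 754 were higher and of the blue points 266 were lower in Mitf-Ndrg1 nerves.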

How the data were processed

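The values are deposited estimated counts per gene from RNA-seq of mouse sciatic nerve. Per the labels' protocols, total RNA of quick-frozen nerves went into stranded poly(A)-selected libraries. The authors made the estimated counts with kallisto and worked on mm10, per the submitters' processing notes. No source used here gives its version or transcript annotation. Reads shared by near-identical genes are split by estimation, so such genes are less certain. Exactly whole numbers made up 34.79% of the values and those within 0.001 of one 64.65%, and all values were rounded before testing.

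All 22 libraries with an Ndrg1, Mitf, Mitf-Ndrg1 or control label entered 1 fit with edgeR 4.0.16 (R 4.3.3). After filterByExpr (minimum count 10) and TMM scaling, genes were tested two-sided with the robust quasi-likelihood test at a Benjamini-Hochberg adjusted p under 0.05. The groups share 1 estimate of the spread. Each SE was obtained from the log2 change and the F statistic. CPM were computed from the deposited estimated counts with TMM-scaled library sizes, and log2 sums used a pseudocount of 2. The injury table was fitted in the same way by itself. Each fit was tried on simulated data in which few genes were changed, as many up as down. That trial does not cover a comparison in which most genes are called. Libraries of a group differed beyond sampling noise, with a chi-square per degree of freedom of at least 21 in Mitf-Ndrg1 and 9.72 in Mitf nerves (genes averaging 20 counts or more).

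The comparison and its 47 lists (34 of gene groups, 13 of cell types, with 25 of 879 genes not matched to the table) were chosen with earlier results of these data known. Named by rule were Ndrg1 and Mitf, then for each direction the 14 smallest p values among called genes with an absolute log2 change of 1 or more and a mean of 1 CPM or more, without predicted, clone, pseudogene, mitochondrial, sex-linked or skeletal muscle genes. To these came, from every list, the 4 smallest p values and members needed to describe it, and 6 interaction genes per direction. Spp1 was added after its values were seen. Some genes that met the rule are not reported here. Positions are those of GENCODE vM21 on mm10, and promoters those of RefSeq on GRCm38.p6, matched by symbol. The alternatives tried were DESeq2 1.42.0, RLE scaling, no filter on low counts, the compared groups alone, a replicate block, sex and muscle covariates, no muscle-rich libraries, and each replicate left out. An adipocyte covariate, the removal of the libraries above 10000 CPM of muscle genes, and all alternatives for the injury table were chosen after seeing the data.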

Additional observations from a re-analysis of the deposited data

Results flagged for a closer look

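Within a group, 26 of 452 sets of values (genes and cell type sums, 5 or 6 libraries each) had a library far from the others by Dixon's criterion at 95%. Chance alone gives about 5% of sets. Mitf replicate 2, the library with the most muscle RNA, stood apart most often. Its skeletal muscle sum was 47800 CPM and its pericyte and smooth muscle sum 1030 CPM. In the same library the fat genes Adipoq (15.4 CPM), Cfd (81 CPM) and Thrsp (34.2 CPM), the fibroblast genes Pi16 (31.4 CPM) and Pcolce2 (3.73 CPM), Ndrg2 (375 CPM) and Ighm (35.6 CPM) were the highest of the 6 Mitf nerves, and Insig1 (295 CPM) and Prx (7240 CPM) were the lowest. The highest muscle sum of the Mitf-Ndrg1 nerves, 24700 CPM, was that of replicate 4, which was also highest for Fasn (548 CPM).

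Mitf replicate 4 was the highest Mitf nerve for Cd4 (1.5 CPM), Cd3g (0.483 CPM) and Thbs2 (72.7 CPM) and the lowest for Cd74 (197 CPM). Mpeg1 was lowest in Mitf replicate 1 (13.7 CPM), and Prpf38b was highest in Mitf replicate 6 (55.7 CPM). Among Mitf-Ndrg1 nerves, replicate 1 was the highest for Ccr2 (49.6 CPM), Skil (34.4 CPM) and Ccnd2 (105 CPM), replicate 2 for Csrp2 (179 CPM), replicate 3 for Tubb3 (17.1 CPM), and replicate 5 for Igf1r (32.5 CPM) and Tead4 (9.63 CPM).

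The effect of the Ndrg1 label differed by test between nerves with and without the Mitf label in 14 named genes. The log2 differences (change against Mitf minus change against control) were 1.31 for Clu, 0.95 for Spon2, 0.71 for Igfbp7, 1.18 for Fxyd6, 1.20 for Irs3, 4.21 for Galnt9, 2.15 for Spp1 and 0.47 for Elovl5. The Elovl5 difference passed in only 15 of 31 alternative fits, with adjusted p between 0.00218 and 0.087. The negative differences were -0.75 for Sec14l5, -0.99 for Cdc7, -0.49 for Ccnd2, -0.88 for Hlf, -0.53 for Nktr and -0.51 for Prpf38b.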

How the results depend on the processing

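The count of genes called between Mitf-Ndrg1 and Mitf nerves, 9165, ranged from 6672 without the muscle-rich libraries to 9425 without Mitf replicate 2, and from 8521 to 9425 over the fits without 1 replicate each. With an adipocyte covariate it was 7073, and 6666 genes kept their call and sign. The count for Ndrg1 against control ran from 9239 to 9785 over fits without 1 replicate. The interaction count, 62, was 403 with DESeq2, 100 with the muscle covariate, 24 without the libraries highest in muscle RNA, 113 with the adipocyte covariate, and 20 to 252 without 1 replicate; the cause was not tested. The injury count, 3365, ran from 1816 to 4058 without 1 replicate, where 1 library fewer was compared. Among named genes called in the main fit or in the alternative, only Thrsp changed sign, at -0.33 with the adipocyte covariate (adjusted p = 0.505). The cause was not tested. Sign changes of genes called in neither fit were not counted. Named genes lost the call in 21 cases without the muscle-rich libraries, 19 with the adipocyte covariate (Thrsp among them) and none under RLE scaling, DESeq2, the sex or the muscle covariate. Same-numbered libraries correlated between -0.122 and 0.476, with 2 of 5 over 0.1 and 2 of 5 best with their own number, so the numbers were not taken as pairs. With a replicate block 8832 genes passed, and 61 in the interaction. Depth limits genes near 0 in a group, where only a lower bound of the change can be given.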
